A study of Mus musculus with 6 samples.

Results

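Transcripts of 10 ligands and surface proteins that restrain immune cells were followed in D4M-3A, a mouse melanoma cell line, with and without an intact Nfkbiz gene. The set was fixed by gene symbol, with earlier results of these data known. It holds Cd274, Pdcd1lg2, Cd276, Cd80, Cd86, Pvr, Nectin2, Lgals9, Cd47 and Nt5e, which are 10 of the 43043 genes listed for each sample. Control cells (Ctrl) had been transduced by lentivirus with a CRISPR-Cas9 construct that lacked a target, and Nfkbiz knockout cells (Nfkbiz KO) with one directed against Nfkbiz, whose protein IκBζ is a nuclear cofactor of NF-κB. All cells were grown in RPMI medium with 10% FCS, without an added cytokine named in the sources used here, and total RNA of 3 Ctrl and 3 Nfkbiz KO samples was sequenced. Whether the knockout cells were 1 clone or a pool is not given in the sources used here.

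Immune checkpoint ligands are surface or secreted proteins through which a tumor cell damps T cells, natural killer cells or macrophages. PD-L1, the product of Cd274, and PD-L2, the product of Pdcd1lg2, bind PD-1 on T cells, and in many tumor cells Cd274 is transcribed in response to interferon, with IRF1 among the factors involved. Nectin2 and Pvr bind the inhibitory receptor TIGIT and the activating receptor CD226, whereas CD47 binds SIRPα on phagocytes and Nt5e encodes the ectoenzyme CD73, which makes adenosine.

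Between 32219900 and 44927203 reads were counted on genes per sample, so that the limit set by 3 reads lay between 0.0668 and 0.0931 CPM (counts scaled to the size of the library), a limit that covers counting error only. Nfkbiz itself had 69.2 ± 5.87 TPM (a level normalized for transcript length and depth, mean ± SD, n = 3) in Ctrl and 34.9 ± 0.245 TPM in Nfkbiz KO samples, and an RNA level says nothing about whether the remaining transcripts encode an intact protein. The study reports that it checked the loss of IκBζ protein in D4M-3A cells by immunoblot. Of 9 melanocyte lineage genes, 7 had at most 3 reads in each sample, and among them Sox10, Tyr, Ednrb and Kit had 0 in all. The other 2 were detected at a low level, the lineage regulator Mitf at 0.951 ± 0.26 TPM in Ctrl against 0.953 ± 0.19 TPM in Nfkbiz KO samples and Pmel at 0.437 ± 0.0818 against 0.512 ± 0.089 TPM. Of 16 immune cell markers, 12 had at most 3 reads in each sample and 6 had 0 in all. Their summed level was 16.1 to 17.9 TPM in Ctrl and 17.4 to 20.3 TPM in Nfkbiz KO samples, nearly all from Cd14 and Cd68, whose adjusted p was 0.83 and 0.37 by edgeR, and their part in the results was not tested. Differences were tested by quasi-likelihood in edgeR, p was adjusted by Benjamini-Hochberg over the 14419 genes that passed a filter on low counts, and because the labels name no separate cultures, the p-values measure only the spread between these samples. The study describes its replicates as independent experiments.

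Knockout of Nfkbiz went with more Cd274 and Cd80 and less Nectin2 RNA, while the more abundant ligands Lgals9, Cd47, Pvr and Cd276 were slightly to moderately higher. Of the 10 members, 8 had enough reads for a test, and all 8 reached an adjusted p of 0.05 or less, against 36.6% of all genes tested. Among them, 6 rose and 2 fell, while 18.2% of all genes tested rose and 18.4% fell at this threshold. Because the members were chosen with earlier results of these data known, these counts describe the set and carry no test of it. The direction of calls across all genes depended on the scale, since 49.8% of the genes called from read counts were higher in the knockout, against 69.4% and 69.7% when log2(TPM + 1) and log2(TPM + 0.1) were tested, but no member changed direction on either scale. The study asked for a fold above 2, the same adjusted p and means that differed by more than 4, taken here as TPM, and by these thresholds 2 members were called, Cd274 as higher and Nectin2 as lower. The same thresholds called 0.756% of all genes tested as higher and 1.03% as lower, 1.79% in total. The median log2 fold change of the 8 members was 0.19, and that of all genes tested was -0.015. In bulk RNA, fewer cells that transcribe a gene and less RNA of it per cell cannot be told apart.

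**Figure D1:**
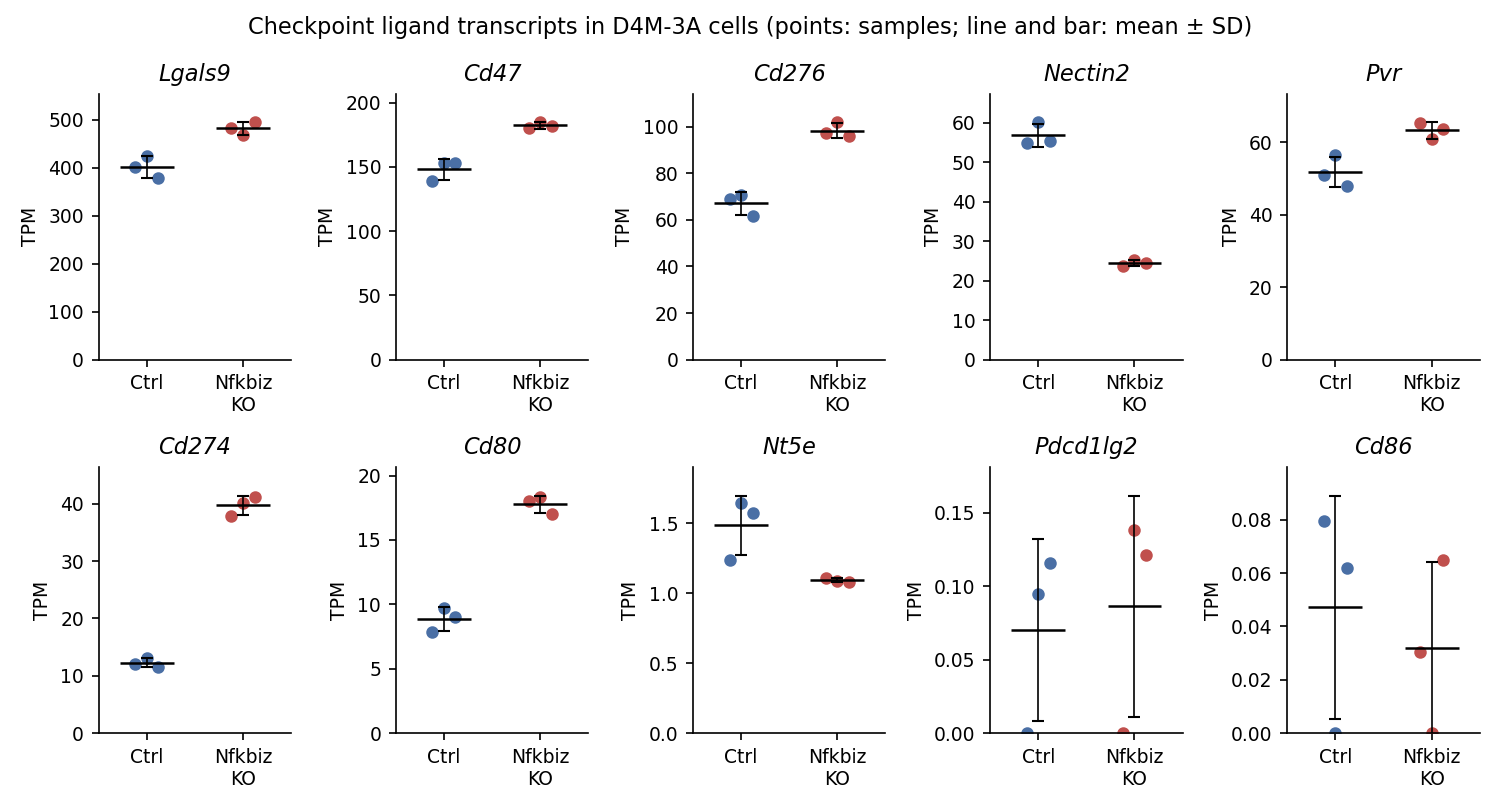
TPM (vertical axes, linear and starting at 0, scaled separately for each gene) of the 10 ligands in 3 Ctrl and 3 Nfkbiz KO samples. Points are samples and lines with bars give the mean ± SD. Cd274, Cd80 and Cd276 sat higher and Nectin2 lower in every Nfkbiz KO sample, while Pdcd1lg2 and Cd86 stayed below 0.15 TPM in all 6.

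Cd274 occupies bases 29344529 to 29365495 of chromosome 19 (GRCm39, plus strand). Its level was 12.1, 13.1 and 11.6 TPM in Ctrl replicates 1, 2 and 3, and 37.8, 40.1 and 41.2 TPM in Nfkbiz KO replicates 1, 2 and 3. The lowest knockout sample was therefore far above the highest control, and the groups did not overlap. The underlying reads were 515, 571 and 586 in Ctrl and 1397, 1800 and 2073 in Nfkbiz KO samples. From these, Cd274 was 3.07-fold higher in the knockout (log2 fold change 1.62, SE 0.0641, adjusted p = 3.6e-09 by edgeR), the 132nd largest increase among all genes tested. In the 6 fits that each omitted 1 sample, the log2 fold change of Cd274 was 1.58 to 1.65. Of the reads counted on Cd274, 91.8% mapped uniquely.

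The PD-L2 gene Pdcd1lg2 starts 22.8 kb after the end of Cd274 on the same strand, yet it was close to silent. It had 0, 2 and 3 reads in Ctrl against 1, 3 and 3 reads in Nfkbiz KO samples, at or under the limit of 3 reads in every library. No difference in Pdcd1lg2 was detectable at this depth, and no fold change is given. The 2 PD-1 ligands thus differed in level by a wide margin in this line, with Pdcd1lg2 at 0.0701 and Cd274 at 12.3 TPM on average in Ctrl samples.

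Among the 15 other annotated genes within 250 kb of Cd274, 9 were listed in the files, 6 of them had enough reads for a test and 3 reached an adjusted p of 0.05 or less, against 36.6% of all genes tested. Jak2, a kinase that takes part in the interferon-γ signal, fell by 0.38 on the log2 scale (SE 0.071, adjusted p = 0.0011 by edgeR), although its adjusted p was 0.14 when log2(TPM + 0.1) was tested with limma. Insl6, which encodes a relaxin-like peptide, rose (log2 fold change 0.49, SE 0.101, adjusted p = 0.0025). Gm36043, an annotated long noncoding RNA inside Cd274 on the opposite strand, went from 86 reads over the 3 Ctrl samples to 232 over the 3 Nfkbiz KO samples (log2 fold change 1.37, SE 0.288, adjusted p = 0.0026). Reads were counted without regard to strand. Exons of Gm36043 cover 14.2% and those of Plgrkt 5.37% of the Cd274 exon bases, so reads from these stretches cannot be assigned to 1 gene. Gm36043 has 5585 exon bases within the span of Cd274, of which 581 are shared with Cd274 exons. Reads on the others could come from either strand, so the rise of Gm36043 cannot be told apart from that of Cd274. Plgrkt, which encodes a plasminogen receptor and overlaps the first exon of Cd274, had a log2 fold change of 0.08 (SE 0.0641, adjusted p = 0.34). The values were 0.18 (SE 0.0686, adjusted p = 0.064) for Ric1 and -0.10 (SE 0.22, adjusted p = 0.77) for the noncoding A930007I19Rik.

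The genes whose pattern over the 6 samples was most like that of Cd274 were sought by the root mean square difference in log2 CPM, each gene centred on its own Ctrl mean. They were Ngef with a difference of 0.0293, Mx1 with 0.0417, Plxna4 with 0.0625, Pard3b with 0.0628 and Cacna1a with 0.0772. Mx1 is an interferon-induced antiviral GTPase, and its level was 13.7 ± 1.79 TPM in Ctrl against 44.4 ± 1.97 TPM in Nfkbiz KO samples. Ngef, a guanine nucleotide exchange factor, went from 17.1 ± 1.14 to 55.7 ± 1.28 TPM. These genes were picked for this likeness, which is a description and carries no test.

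The bases before the transcript start were read for the 8 members with a RefSeq promoter entry, over the 250 bases upstream of the start, and searched on both strands for motifs of factors that act with IκBζ or interferon. An interferon response element core, GAAA repeated after any 2 bases, was present in 1 member (Lgals9) and in 2.98% of all 32851 promoter windows of this length. The AP-1 element TGANTCA was present in 1 member (Cd80) and 6.75% of all windows, the NF-κB consensus in 1 member (Pdcd1lg2) and 7.25% of all windows, and the STAT element TTCNNNGAA in 0 members and 7.02% of all windows. A shorter interferon regulatory factor core, AANNGAAA, which overlaps the first motif and was added after the Cd274 window had been read, was present in 3 members (Cd274, Lgals9 and Pdcd1lg2) and in 21.3% of all windows. The 30 bases around a match are shown for the 4 members with one, with the match in capitals on the strand of the gene. They lie at chr19:29344652-29344681 (plus strand, Cd274), chr16:38279242-38279271 (plus strand, Cd80), chr11:78875786-78875815 (minus strand, Lgals9) and chr19:29388069-29388098 (plus strand, Pdcd1lg2) of GRCm39. The matches are 175, 42, 55 and 244 bases before the RefSeq start, counted to the match's far end. In the GENCODE annotation, whose transcripts can start earlier, the Cd274 and Cd80 stretches lie inside the annotated span of the gene. That of Lgals9 spans the start of the gene and that of Pdcd1lg2 lies upstream of it. The stretches are shown to set the ligand that rose most beside the others, and a match is a run of letters and not a site of binding.
Cd274: ccgaagcctagTTTCGTTTtttcttaaact
Cd80: tggccacacccTGATTCAgaactctcactc
Lgals9: tgacatcagcTTTCTTTTTCtctagacact
Pdcd1lg2: tgctgtGGGGAATCCCtggtacatgtggac
The Cd274 and Lgals9 motifs read on the strand opposite to the gene, and those of Cd80 and Pdcd1lg2 on both strands. The window of Nectin2, the ligand that fell most, held none of these letters.

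Cd80, on chromosome 16 from 38275923 to 38316697 (plus strand), encodes a B7 ligand that binds CD28 and CTLA-4 on T cells and also PD-L1 on the same membrane. It had 7.82, 9.68 and 9.05 TPM in Ctrl replicates 1, 2 and 3, and 18.0, 18.3 and 17.0 TPM in Nfkbiz KO replicates 1, 2 and 3. The groups did not overlap, and the knockout samples were tightly grouped. Cd80 was 1.85-fold higher (log2 fold change 0.89, SE 0.0837, adjusted p = 4.4e-06 by edgeR), below the study's fold of 2 on read counts. On log2(TPM + 0.1) Cd80 just passed a fold of 2 as well, which brought the members called to 3. At a less strict threshold, a fold of 1.5 with an adjusted p of 0.1, 3 members passed, Cd274, Nectin2 and Cd80, against 12.6% of all genes tested.

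Its partner Cd86, the other ligand of CD28 and CTLA-4, was close to the floor. Cd86 had 8, 5 and 3 reads in Ctrl against 5, 1 and 4 reads in Nfkbiz KO samples, and was not tested. The only B7 ligand for CD28 with a measurable level in this line was thus Cd80, and no difference in Cd86 was detectable at this depth.

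Cd276, on chromosome 9 from 58431412 to 58463665 (minus strand), encodes B7-H3, a ligand that many tumors carry and whose receptor is not settled. Its level was 69.1, 70.5 and 61.5 TPM in Ctrl replicates 1, 2 and 3, and 97.1, 102 and 95.9 TPM in Nfkbiz KO replicates 1, 2 and 3. Every knockout sample was above every control. The rise was 1.37-fold (log2 fold change 0.45, SE 0.0544, adjusted p = 3.9e-05 by edgeR) and was 0.42 to 0.47 on the log2 scale when any 1 sample was omitted.

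Nectin2 and Pvr, which encode the TIGIT ligands CD112 and CD155, lie 153 kb apart on chromosome 7, both on the minus strand, at 19450569 to 19484408 and 19637503 to 19655085. Nectin2 had 54.9, 60.2 and 55.5 TPM in Ctrl replicates 1, 2 and 3, and 23.7, 25.3 and 24.5 TPM in Nfkbiz KO replicates 1, 2 and 3. It was 59.7% lower in the knockout (log2 fold change -1.31, SE 0.0574, adjusted p = 5.9e-09 by edgeR), the 310th largest decrease among all genes tested, with values of -1.34 to -1.29 when any 1 sample was omitted. The groups were far apart and each was narrow.

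Pvr had 51.0, 56.4 and 48.1 TPM in Ctrl replicates 1, 2 and 3, and 65.4, 60.9 and 63.8 TPM in Nfkbiz KO replicates 1, 2 and 3. It was 1.15-fold higher (log2 fold change 0.20, SE 0.0557, adjusted p = 0.014 by edgeR). This small difference kept its direction in all 6 fits that left out a sample, at 0.17 to 0.25 on the log2 scale. Its call was less stable, because the adjusted p rose to 0.073 when Nfkbiz KO replicate 1 was left out and to 0.066 when replicate 3 was. The size was 0.19 in both of these fits. The genes called among all those tested also fell there, from 5274 to 3803 and 3798. The 2 neighbours therefore went in opposite directions, Nectin2 by far the more. The ratio of Nectin2 to Pvr TPM was 1.08, 1.07 and 1.15 in the Ctrl samples and 0.363, 0.415 and 0.383 in the Nfkbiz KO samples (exact permutation test, two-sided, p = 0.1, the lowest that 3 against 3 samples can give).

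**Figure D2:**
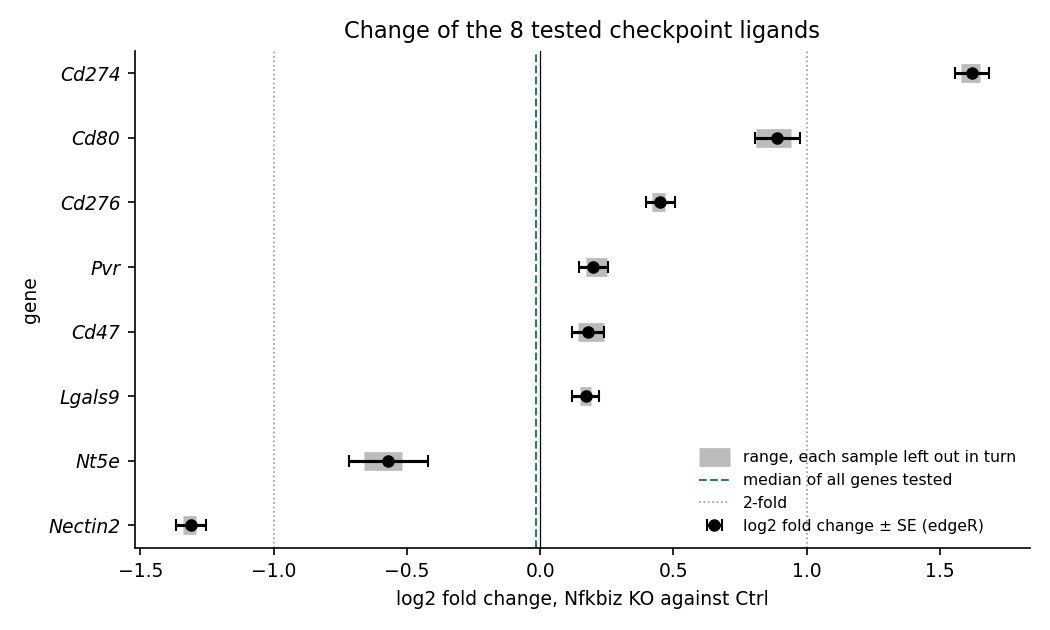
Log2 fold change of the 8 tested ligands in Nfkbiz KO against Ctrl samples (horizontal axis), with its standard error (bars) and the range over the fits that omit 1 of the 6 samples (grey). The dashed line is the median of all genes tested (-0.015) and the dotted lines mark a fold of 2. Cd274 (1.62) and Nectin2 (-1.31) lie beyond the dotted lines, and Pvr, Cd47 and Lgals9 lie between 0.17 and 0.20.

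Lgals9 and Cd47 were the most abundant members and moved little. Lgals9, on chromosome 11 from 78853800 to 78875798 (minus strand), encodes galectin-9, a secreted lectin that binds TIM-3. It stood at 402, 425 and 378 TPM in Ctrl against 482, 469 and 495 TPM in Nfkbiz KO samples, which did not overlap. Its log2 fold change was 0.17 (SE 0.0507, adjusted p = 0.020 by edgeR), and the adjusted p rose to 0.072, 0.053 and 0.12 without Nfkbiz KO replicate 1, 2 or 3.

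Cd47, the "don't eat me" signal to macrophages, lies on chromosome 16 from 49620896 to 49735373 (plus strand). It stood at 139, 153 and 153 TPM in Ctrl against 180, 185 and 182 TPM in Nfkbiz KO samples, without overlap. On read counts its log2 fold change was 0.18 (SE 0.0589, adjusted p = 0.029 by edgeR), and the adjusted p reached 0.11 without Ctrl replicate 1, 0.081, 0.11 and 0.096 without Nfkbiz KO replicate 1, 2 or 3. On log2(TPM + 1), tested with limma, the log2 fold changes were larger, 0.29 for Pvr, 0.26 for Lgals9 and 0.30 for Cd47 (adjusted p = 0.025, 0.015 and 0.0071). The median of all genes tested was also higher on that scale, 0.063 against -0.015 on read counts. On read counts the calls of these 3 members were not stable to the loss of 1 sample, whereas the calls of the other 5 tested members held in all 6 such fits. The number of members with an adjusted p of 0.05 or less was 5 without Nfkbiz KO replicate 1 and 5 without Nfkbiz KO replicate 3.

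Nt5e, on chromosome 9 from 88209089 to 88254146 (plus strand), was the least abundant of the tested members. It stood at 1.24, 1.64 and 1.57 TPM in Ctrl against 1.11, 1.09 and 1.08 TPM in Nfkbiz KO samples, from 120, 162 and 182 reads and 87, 106 and 124 reads. Every knockout sample was below every control, and Ctrl replicate 1 was the nearest to them. Nt5e was 32.8% lower (log2 fold change -0.57, SE 0.149, adjusted p = 0.0097 by edgeR). The same comparison on log2(TPM + 0.1) gave -0.40 and an adjusted p of 0.066 by limma. In all, the log2 CPM of 8 members did not overlap between the groups, against 48.4% of all genes tested.

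The order of the members by TPM, a scale normalized for length, shifted in the middle. In Ctrl samples it was Lgals9, Cd47, Cd276, Nectin2, Pvr, Cd274, Cd80, Nt5e, Pdcd1lg2 and Cd86, and the ranges of Nectin2 and Pvr overlapped, as did those of Pdcd1lg2 and Cd86. In Nfkbiz KO samples Nectin2 had moved from the 4th to the 6th place, below Pvr and Cd274, and only Pdcd1lg2 and Cd86 overlapped. The share of Cd274 in the summed TPM of the 10 members was 1.64% in Ctrl and 4.36% in Nfkbiz KO samples, that of Nectin2 was 7.60% and 2.69%, and Lgals9 held 53.7% and 53.0%. The summed level was 749 ± 36.6 TPM in Ctrl against 909 ± 9.96 TPM in Nfkbiz KO samples (mean ± SD, n = 3).

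Relative to Cd80 and Cd276, Cd274 was also higher within each knockout sample than in any control. The ratio of Cd274 to Cd80 TPM was 1.55, 1.35 and 1.29 in Ctrl and 2.10, 2.19 and 2.43 in Nfkbiz KO samples. That of Cd274 to Cd276 was 0.175, 0.185 and 0.189 in Ctrl and 0.389, 0.392 and 0.430 in Nfkbiz KO samples. Neither ratio overlapped between the groups, and the exact permutation test gave p = 0.1 for each (two-sided, the lowest possible here), with 3 ratios compared.

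**Figure D3:**
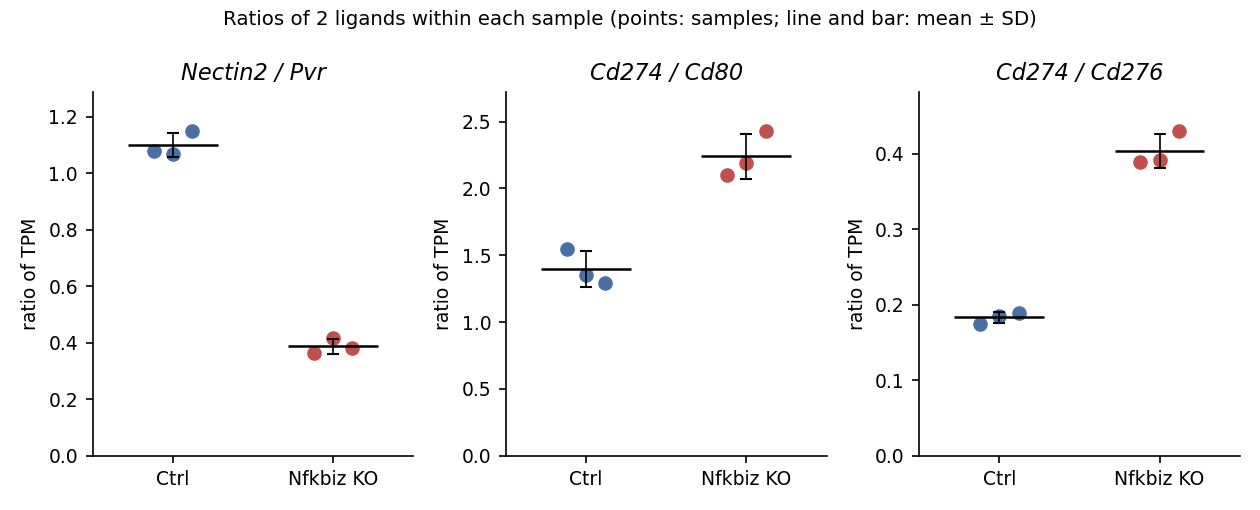
Ratio of the TPM of 2 ligands within each sample (vertical axes, linear from 0), for 3 Ctrl and 3 Nfkbiz KO samples. Points are samples and lines with bars the mean ± SD. Nectin2 over Pvr was 1.10 ± 0.0467 in Ctrl and 0.387 ± 0.0262 in Nfkbiz KO samples, and the ratios of Cd274 to Cd80 and to Cd276 were higher in all Nfkbiz KO samples.

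Of 21 other checkpoint ligands, 11 were tested and 7 passed an adjusted p of 0.05, where 36.6% of all genes tested did, 6 higher and 1 lower (18.2% and 18.4% of all), with a median log2 fold change of 0.21 over the 11. That median was 0.31 on log2(TPM + 1) and on log2(TPM + 0.1). Nectin3, a further partner of Pvr and Nectin2 in cell adhesion, rose by 0.73 on the log2 scale (SE 0.0548, adjusted p = 6.1e-07 by edgeR). Tnfrsf14, the ligand of BTLA, rose by 0.72 (SE 0.148, adjusted p = 0.0023). Cd24a, whose product binds inhibitory Siglec receptors, had 17, 24 and 27 reads in Ctrl against 0, 2 and 0 reads in Nfkbiz KO samples. Scaled by depth, the Cd24a reads of the knockout were 0.0292 of those of Ctrl, with a 95% counting interval of 0.00346 to 0.11 (exact Clopper-Pearson).

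Of 17 receptors for these ligands, many of which immune cells would carry, 10 did not have enough reads for a test and 1 of the 7 tested passed an adjusted p of 0.05, against 36.6% of all genes tested. That gene was Rgmb, a binding partner of PD-L2, which rose from 42.2 ± 1.30 to 61.0 ± 2.54 TPM (log2 fold change 0.42, SE 0.0569, adjusted p = 9.4e-05 by edgeR). Pdcd1, the PD-1 gene, named for its role after its reads were seen, had 0, 1 and 0 reads in Ctrl against 0, 1 and 1 in the knockout. Sirpa, the SIRPα gene, likewise named afterwards, was well detected, at 30.3 ± 1.7 TPM in Ctrl against 30.7 ± 0.733 TPM in Nfkbiz KO samples. Its log2 fold change was -0.09 (SE 0.0531, adjusted p = 0.20 by edgeR). The median of the 7 was 0.32, but it was -0.08 without Ctrl replicate 1 and -0.02 without Nfkbiz KO replicate 1. On log2(TPM + 1) and log2(TPM + 0.1) it was 0.02.

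In the interferon pathway to Cd274, Stat2, Irf1 and Irf2 were higher and Stat3, a kinase, a feedback inhibitor and receptor chains were lower in the knockout, and no list was tested against other genes. All 15 genes of that list were tested and 8 passed an adjusted p of 0.05 (36.6% of all genes tested did), 3 higher and 5 lower (18.2% and 18.4% of all), with a median of -0.07, which was 0.08 on log2(TPM + 1) and 0.09 on log2(TPM + 0.1). Socs3, the STAT3-induced inhibitor of cytokine signaling, fell from 128 ± 1.66 to 65.1 ± 4.33 TPM (log2 fold change -1.07, SE 0.0633, adjusted p = 8.1e-08 by edgeR), and was the only gene of the 6 lists called at the study thresholds. Stat3 went from 45.9 ± 3.08 to 31.7 ± 0.867 TPM (-0.63, SE 0.0529, adjusted p = 1.6e-06). Irf1, an interferon-induced activator of Cd274, rose from 67.9 ± 2.31 to 99.5 ± 1.64 TPM (0.45, SE 0.0503, adjusted p = 2.2e-05).

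The other genes of the interferon list that passed, named after their values were seen, were Irf2 and Stat2 as higher and Jak2, Ifnar2 and Ifngr1 as lower. Irf2 had a log2 fold change of 0.33 (SE 0.0672, adjusted p = 0.0022 by edgeR) and Stat2 one of 0.23 (SE 0.0545, adjusted p = 0.0058). The receptor chains Ifngr1 and Ifnar2 fell by 0.18 (SE 0.0535, adjusted p = 0.022) and 0.25 (SE 0.0582, adjusted p = 0.0051). The call of Ifngr1 was lost in 3 of the 6 fits that omitted 1 sample (adjusted p up to 0.093), and on log2(TPM + 1) the values were -0.07 for Ifngr1 (adjusted p = 0.20 by limma) and -0.15 for Ifnar2. Whether any of these changes bears on Cd274 was not tested.

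Of 19 genes for the stability, glycosylation and transport of the PD-L1 protein, all were tested and 6 passed an adjusted p of 0.05, 2 higher and 4 lower, with a median of 0.01. The median was 0.10 on log2(TPM + 1) and 0.11 on log2(TPM + 0.1). These 6 of 19 were no larger a share than the 36.6% of all genes tested. The widest differences among these 6 were the ubiquitin ligase subunit Btrc at -0.22 (SE 0.0587, adjusted p = 0.010 by edgeR), the galactosyltransferase B4galt1 at 0.22 (SE 0.0609, adjusted p = 0.014) and the trafficking factor Trappc4 at -0.21 (SE 0.0647, adjusted p = 0.026). The other 3, named after their values were seen, were the kinase Gsk3b at 0.17 (SE 0.0544, adjusted p = 0.031), the PD-L1 stabilizer Cmtm6 at -0.19 (SE 0.0572, adjusted p = 0.023) and Cdk4 at -0.17 (SE 0.0538, adjusted p = 0.028). The 4 lower calls were lost when TPM was tested with limma (adjusted p up to 0.22 for Btrc, 0.18 for Trappc4, 0.32 for Cmtm6 and 0.074 for Cdk4), and on read counts the number called was 2, 1 and 2 without Nfkbiz KO replicate 1, 2 and 3. The number called in the list was still 5 on log2(TPM + 1) and 5 on log2(TPM + 0.1), and it was 9 with DESeq2.

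Of 19 adenosine genes around Nt5e, 12 were tested and 4 passed an adjusted p of 0.05, near the 36.6% of all genes tested, 3 higher and 1 lower, with a median of -0.10, which was 0.00 on the TPM scales. Cd38, an ectoenzyme that consumes NAD, fell from 1.69 ± 0.244 to 0.879 ± 0.271 TPM (-1.10, SE 0.246, adjusted p = 0.0041 by edgeR). Enpp1, an ectoenzyme that yields AMP, the substrate of CD73, rose from a low 0.0924 ± 0.0159 to 0.328 ± 0.0531 TPM (1.58, SE 0.326, adjusted p = 0.0024). On log2(TPM + 1) these differences were -0.52 for Cd38 and 0.28 for Enpp1. The adenosine transporter Slc29a1 rose by 0.30 (SE 0.0535, adjusted p = 0.00081). The purine phosphorylase Pnp, named after its value was seen, rose by 0.29 (SE 0.0581, adjusted p = 0.0022), with 54.9% of its reads mapped uniquely. Entpd1, the CD39 gene that acts just before Nt5e and was likewise named afterwards, had few reads, 11, 7 and 22 in Ctrl against 9, 13 and 11 in Nfkbiz KO samples (-0.29, SE 0.449, adjusted p = 0.66). Its mean TPM was very low, 0.0431 in Ctrl against 0.0101 in Nfkbiz KO samples, and gave a wider gap than the reads.

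Of 7 genes of the CD47 axis, all were tested and 3 passed an adjusted p of 0.05, near the 36.6% of all genes tested, 1 higher and 2 lower, with a median of -0.09, which was 0.02 on the TPM scales. The CD47-binding thrombospondins fell, Thbs2 from 151 ± 14.2 to 96.0 ± 3.28 TPM (-0.74, SE 0.0566, adjusted p = 7.1e-07 by edgeR) and Thbs1 from 486 ± 64.1 to 415 ± 16.0 TPM (-0.32, SE 0.0693, adjusted p = 0.0033). Qpct, a glutaminyl cyclase related to the enzyme that modifies CD47, rose by 0.55 (SE 0.0939, adjusted p = 0.00062). The TPM of Thbs1 overlapped between the groups (503, 540 and 415 against 431, 417 and 399), its adjusted p reached 0.17 when TPM was tested with limma, and the count of the list was then 2.

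**Figure D4:**
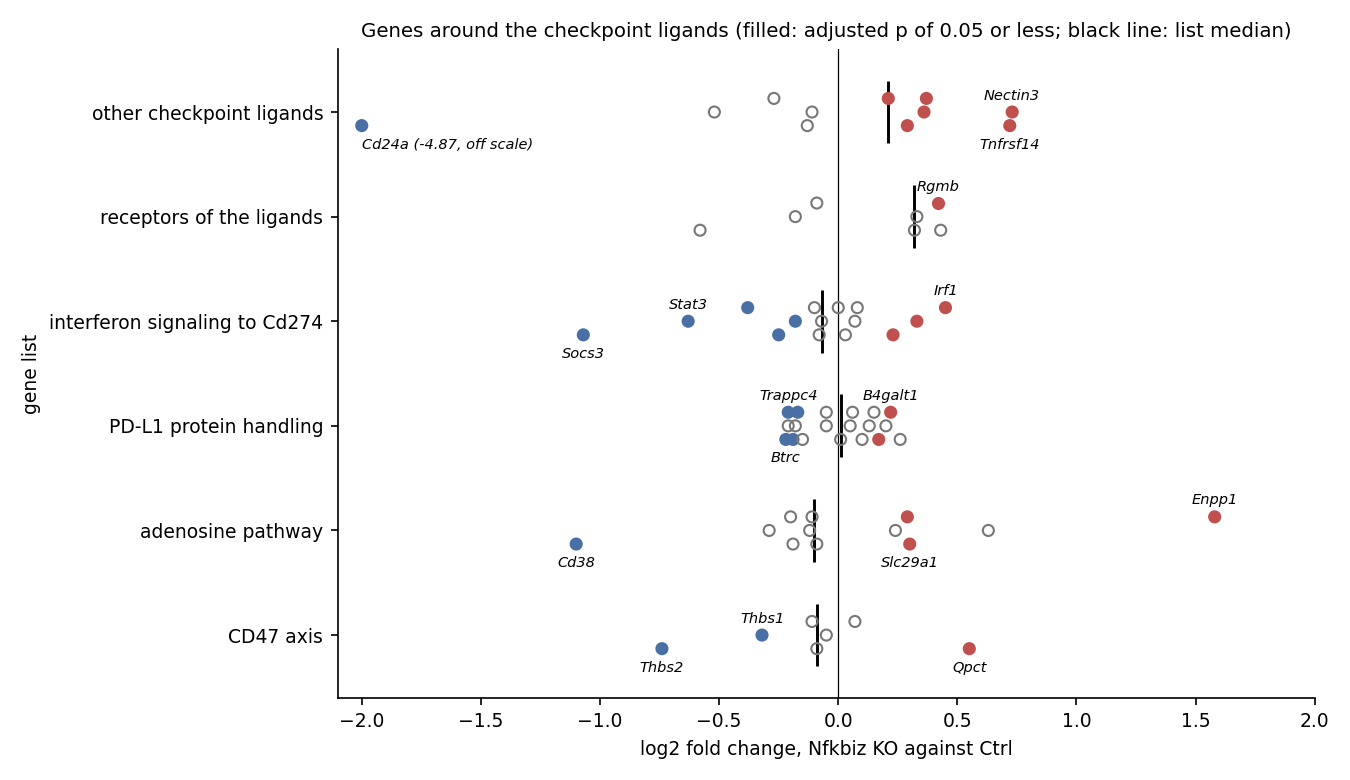
Log2 fold change (horizontal axis) of every tested gene in 6 lists around the checkpoint ligands (vertical axis). Filled points have an adjusted p of 0.05 or less (red higher, blue lower in Nfkbiz KO), open points do not, black lines are list medians, and Cd24a at -4.87 is drawn at the left edge. Points of the interferon list spread from Socs3 at -1.07 to Irf1 at 0.45, while those of the PD-L1 handling list stay between -0.22 and 0.26.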

How the data were processed

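Reads were processed by the authors with CLC Genomics Workbench against the mouse genome GRCm39 according to the methods of the study, whereas the submitters' processing notes list GRCm38. Up to 10 positions per read were allowed, broken pairs were ignored and strand was not used. The authors deposited raw counts of reads per gene (total and unique) and TPM, normalized for length and depth. Total counts were tested here with edgeR 4.0.16 in R 4.3.3 (TMM, filterByExpr at a count of at least 10 and a total of at least 15, quasi-likelihood test, Benjamini-Hochberg adjustment over 14419 genes). SE is the size of the log2 fold change divided by the square root of F. Non-overlap was read from log2 CPM. Members and lists were chosen with earlier results of these data known, and 1 gene of the interferon list is not reported here. The text names all members, list genes called at the study thresholds or with the 3 largest log2 fold changes among those with an adjusted p of 0.05 or less, neighbours of Cd274 and Nfkbiz. Alternatives were DESeq2 1.42.0, RLE factors, other filters, unique reads, limma 3.58.1 on TPM, a replicate block, each sample left out and other thresholds. Positions come from GENCODE vM39 and promoter windows from RefSeq (GRCm38.p6 entries, located in GRCm39 by exact match). Scripts were tested on simulated data.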

Additional observations from a re-analysis of the deposited data

How the results depend on the processing

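None of the 112 log2 fold changes recomputed for the 8 tested members reversed, 102 kept their side of the threshold, and the 10 that lost it were 2 of Pvr (0.19 and 0.19), 3 of Lgals9 (0.15 to 0.19), 4 of Cd47 (0.14 to 0.19) and 1 of Nt5e (-0.40). The number of members with an adjusted p of 0.05 or less was 5 to 8 over the 6 leave-one-out fits. The count of PD-L1 handling genes was 1 to 8 in those fits, and that of receptors was 2 with limma on log2(TPM + 0.1). The causes of these shifts were not tested. Same-numbered samples showed little shared deviation from their group means (correlations 0.0367, -0.0233 and 0.0256), and the labels do not say whether they were handled together. With a replicate block 8 members passed and Cd274 had a log2 fold change of 1.62. Depth limits Pdcd1lg2 and Cd86, which did not pass the filter on low counts.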
